A study of Mus musculus with 14 samples.

Results

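In tumour cells that carry the Cas9 control vector, 615 of 14363 H3K4me3 peaks lay in H3K27me3, had no H3K27ac peak, and were overlapped by an H3K27ac peak once Ezh2 was knocked out. These 615 peaks are the subject here. They were selected on the deposited region lists: a member is an H3K4me3 peak of the Cas9 cells that shares at least 1 bp with an H3K27me3 island of the same cells, shares none with an H3K27ac peak of the same cells, and shares at least 1 bp with an H3K27ac peak of the Ezh2 knockout. They are called acetylated bivalent peaks below. Peaks of this kind usually mark promoters, but no gene annotation of build mm9, the build of the files, was used here, so no member is tied to a gene and positions are given in mm9 only.

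The study used mouse medulloblastoma cells grown as tumorspheres, floating clumps of tumour cells, and the question put by its design is what changes in Myc-driven Group 3 medulloblastoma when Ezh2 is lost. Per the labels, the control cells were p53-/-;p18-/- and carried Cas9, and the knockout cells were p53-/-;p18-/- ;Ezh2-/-. The series' design text adds that the cells over-express Myc, which both kinds then share, and that the background was p53-/-;p18-/- or wild type and mixed. Cells were infected with retroviral vectors and sorted for red and green fluorescence, so each kind is a sorted pool. The labels' protocol goes on to transplantation into the brains of CD-1 nu/nu mice and does not say whether the chromatin was taken before or after it. The lists hold no expression values, so the labelled cell type was not checked by markers. Neurospheres, floating cultures of neural cells of genotype p53-/-;p18-/-, were profiled with a Gfi1 antibody (labelled Cas9 and Suz12F2) and with a Cas9 antibody (labelled U6, Suz12F1 and Suz12F2). What U6, F1 and F2 mean is not explained in the labels.

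Each of the 14 libraries is alone in its group, so no comparison below has a replicate or a test. Intervals in brackets are Wilson 95% intervals of a share. They cover counting error over peaks and neither biological nor technical variation. Peaks in the same island, or under the same knockout peak, are not independent. The deposited lists hold no read totals, so depth is unknown, and the H3K27me3 list of the knockout held 5312 islands over 18.6 Mb against 14107 over 71.4 Mb in Cas9 cells. The knockout H3K27ac list is the longer, with 10112 peaks against 7951 in Cas9 cells.

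H3K4me3 is a histone mark of promoters, placed by the Trithorax group of methyltransferases. H3K27me3 is the repressive mark of Polycomb repressive complex 2, whose catalytic subunit is Ezh2, while H3K27ac sits on the same lysine at active promoters and enhancers, so a given lysine can carry only one of them. Promoters that hold H3K4me3 and H3K27me3 together are called bivalent and are known from stem and progenitor cells, where they often belong to silent developmental genes. In bulk chromatin, both marks on the same fibre and each mark in a different share of the cells cannot be told apart.

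The acetylated bivalent peaks were 36.8% (34.5 to 39.2) of the 1670 bivalent peaks without H3K27ac in Cas9 cells. When only the 7951 highest-scoring knockout H3K27ac peaks were used, as many as in Cas9 cells, the share was 23.1% (21.1 to 25.1). The other 1055 bivalent peaks gained no H3K27ac peak and serve as the nearest comparison. Among the 5579 H3K4me3 peaks with neither H3K27me3 nor H3K27ac in Cas9 cells, 1443 were overlapped by knockout H3K27ac, which is 25.9% (24.7 to 27). This value uses the full knockout list, as 36.8% does, and was not recomputed with the 7951 peaks, so it cannot be set against 23.1%. A further 6988 H3K4me3 peaks carried H3K27ac and no H3K27me3 in Cas9 cells, and 126 carried both. Across all 14363 peaks, 60.8% were overlapped by knockout H3K27ac, but as this overlap chose the members nothing is read from it.

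Values at the edges of the rule were as follows. The smallest stretch shared with an island was 57 bp, and the smallest shared with a knockout H3K27ac peak was 28 bp. Of the 615 members, 502 shared at least 200 bp with knockout H3K27ac. The nearest Cas9 H3K27ac peak to any member was 82 bp away, and 18 members had such a peak within 1 kb. Just outside the rule, the closest knockout H3K27ac peak stood 1 bp from a bivalent peak that it did not overlap. In all, 11 of the peaks that were not acetylated had knockout H3K27ac within 100 bp and 77 had it within 1 kb.

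The new H3K27ac lay mostly within the H3K4me3 peak that the rule required it to touch. The members were met by 648 knockout H3K27ac peaks, of which 447 (69.0%) lay wholly inside a single Cas9 H3K4me3 peak. Of their summed length, 90.9% was inside Cas9 H3K4me3 and 94.7% inside knockout H3K4me3. The H3K27ac peak at a member was 363 bp wide at the median (quartiles 248 to 554), against 391 bp over the whole knockout H3K27ac list, and covered 59.0% of the H3K4me3 peak, with a distance of 68 bp between the centres. By the authors' score it ranked low in the knockout H3K27ac list, at the 28.8th percentile at the median (quartiles 13.4 to 49.3). At H3K4me3 peaks without H3K27me3 that were newly acetylated, the corresponding H3K27ac peaks were 259 bp wide and at the 21.0th percentile, and at peaks already acetylated in Cas9 cells they were 472 bp wide and at the 66.0th. These values describe the peaks the rule selected. At 1 kb from the centre of a member, 3.01% of positions were in knockout H3K27ac, against 82.0% at the centre, and at 5 kb none of 1230 positions was. At 3 members the knockout H3K27ac peak also reached a Cas9 H3K27ac peak beside the member.

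**Figure D1:**
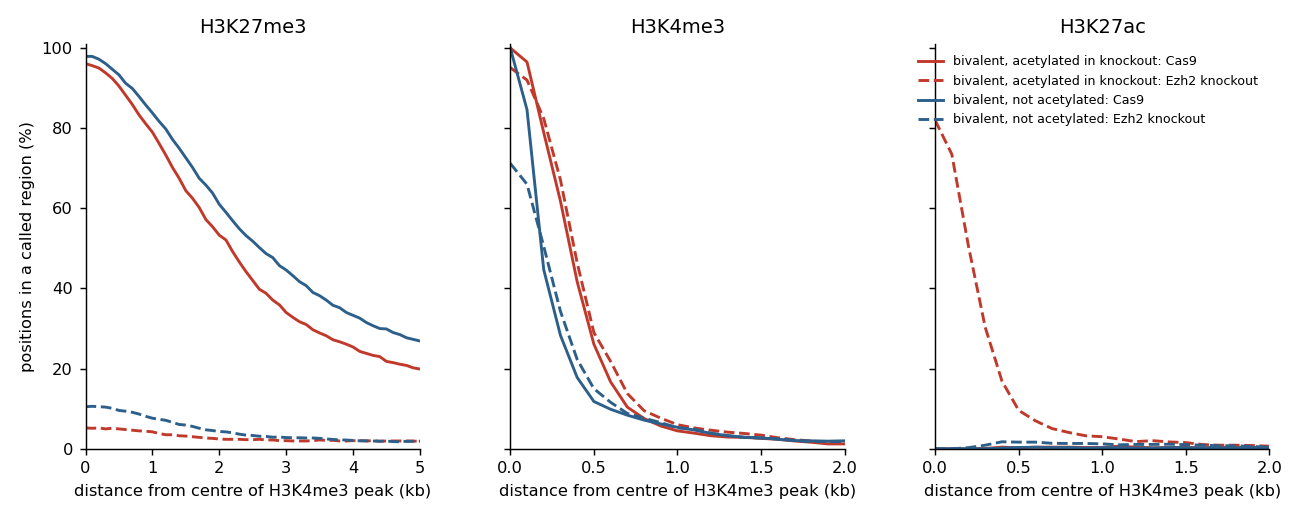
Share of positions (%, vertical axis) lying in called regions of each mark, by distance from the centre of the H3K4me3 peak in kb (both sides together, horizontal axis), for the 615 acetylated bivalent peaks (red) and the 1055 not acetylated (blue), in Cas9 cells (solid) and the knockout (dashed). At the centre of members H3K27me3 was at 96.1% of positions in Cas9 cells, where the rule required an island, and at 5.20% in the knockout. H3K4me3 went from 100%, set by the rule, to 95.1%. H3K27ac in the knockout, which the rule also required, reached 82.0%.

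The member with the highest H3K4me3 score, chr10:74523252-74524307, was 1056 bp wide, with a score of 67.0 (98.6th percentile of the Cas9 list) and lay wholly in an island of 1800 bp. In the knockout its H3K4me3 peak was 1111 bp wide, no H3K27me3 island remained on it, and an H3K27ac peak of 511 bp appeared within it. The next by score was chr14:31528257-31529921, 1665 bp wide in an island of 4200 bp, with 1018 bp of knockout H3K27ac and a knockout H3K4me3 width of 1418 bp. The next after it, chr4:151368870-151370329, had a Cas9 H3K27ac peak 208 bp from its edge, so its H3K27ac was new only on the peak itself. The members with the highest knockout H3K27ac scores were chr1:9787844-9788599 and chr1:186823064-186824029, both at the 92.8th percentile of that list. The first of them kept a similar H3K4me3 width, 756 bp in Cas9 cells and 865 bp in the knockout.

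H3K4me3 at the members was wider than at the other bivalent peaks and of middling rank in the Cas9 cells before any knockout. The members' width was 676 bp at the median (quartiles 428 to 899, range 180 to 2105), against 601 bp over all Cas9 H3K4me3 peaks. Bivalent peaks that were not acetylated were 347 bp wide (232 to 560), newly acetylated peaks without H3K27me3 were 561 bp wide, and peaks acetylated in Cas9 cells were 804 bp wide. The score, a number the authors gave each peak and which is used here only to rank peaks within a list, was 23.0 at the median for members and 14.0 for bivalent peaks that were not acetylated. As a percentile of the Cas9 list these medians stand at 43.3 (quartiles 26.4 to 58.7) and 20.0 (8.09 to 32.0). Newly acetylated peaks without H3K27me3 stood at 49.3 and those acetylated in Cas9 cells at 72.0. The members therefore lay between the bivalent peaks that stayed without H3K27ac and the peaks that had it from the start, with wide overlap of all groups. A wider peak meets another peak more easily, and the part of this in the difference in width was not tested. With at least 200 bp of shared H3K27ac required, members were 727 bp wide and the others 353 bp. A peak under 200 bp cannot pass that setting, and members that failed it were counted with the others. The setting thus favours wider members and cannot show how much of the difference comes from easier overlap.

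**Figure D2:**
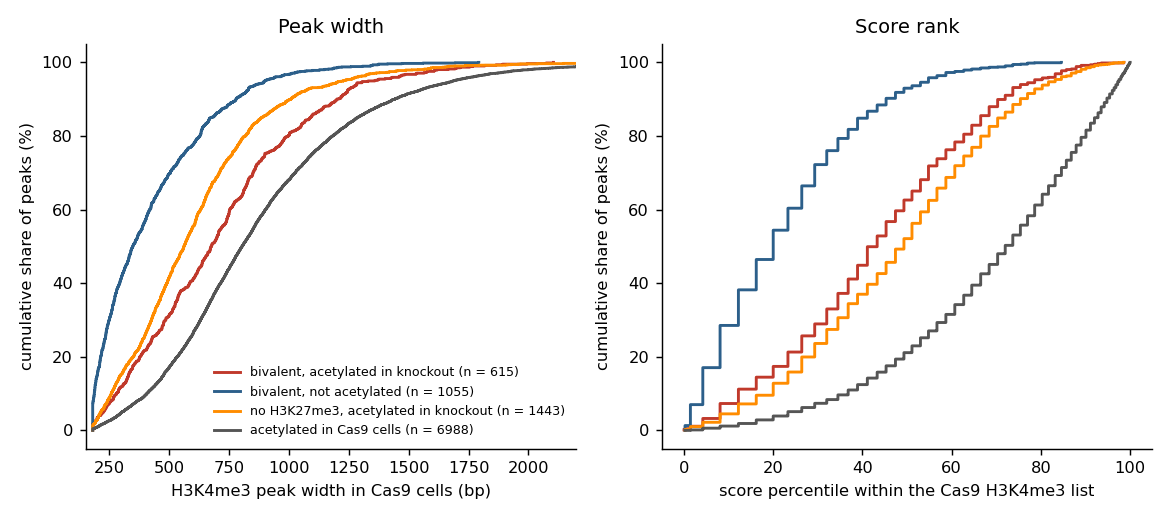
Cumulative share of H3K4me3 peaks (%, vertical axes) by width in Cas9 cells in bp (left, shown to 2200 bp) and by score percentile within the Cas9 list (right), for 4 groups of peaks. Acetylated bivalent peaks (red, median 676 bp, 43.3rd percentile) lie to the right of the bivalent peaks that were not acetylated (blue, 347 bp, 20.0th) and to the left of peaks acetylated in Cas9 cells (grey, 804 bp, 72.0th).

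The share of bivalent peaks that became acetylated rose with the rank of their H3K4me3. Peaks were split at the quartiles of score over the whole Cas9 list, which were 16, 26 and 40. In the lowest quartile 158 of 859 bivalent peaks were members, 18.4% (15.9 to 21.1). The share was 44.8% (40.5 to 49.1) in the second quartile and 73.7% (68.0 to 78.6) in the third. In the highest quartile 37 of 42 bivalent peaks were members, 88.1% (75.0 to 94.8). Of the 5 in that quartile that were not acetylated, the scores were 41.0 to 46.0.

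The same rise was present among peaks without H3K27me3, at a lower level. There the shares were 10.6% (9.53 to 11.8), 28.5% (26.4 to 30.8), 54.5% (51.4 to 57.5) and 60.2% (53.8 to 66.2) from the lowest to the highest quartile. In each quartile the bivalent share was the larger, and the intervals did not meet. By width, 14.3% (11.5 to 17.6) of bivalent peaks under 300 bp were acetylated, 32.0% of those of 300 to 599 bp, 53.4% of those of 600 to 899 bp and 74.1% of those of 900 bp and over. The corresponding shares without H3K27me3 were 10.9% (9.62 to 12.3), 26.3%, 45.0% and 53.7%. The intervals overlap under 300 bp. They lie apart in the 3 wider classes, by the least at 300 to 599 bp (28.3 to 36.0 against 24.5 to 28.2). Both comparisons use the full knockout H3K27ac list and were not repeated with its 7951 highest-scoring peaks. Peaks with neither H3K27me3 nor H3K27ac in either kind of cell lay 323 bp from the next Cas9 H3K4me3 peak at the median. For bivalent peaks that were not acetylated this distance was 23693 bp. The part of this difference in the lower shares was not tested.

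**Figure D3:**
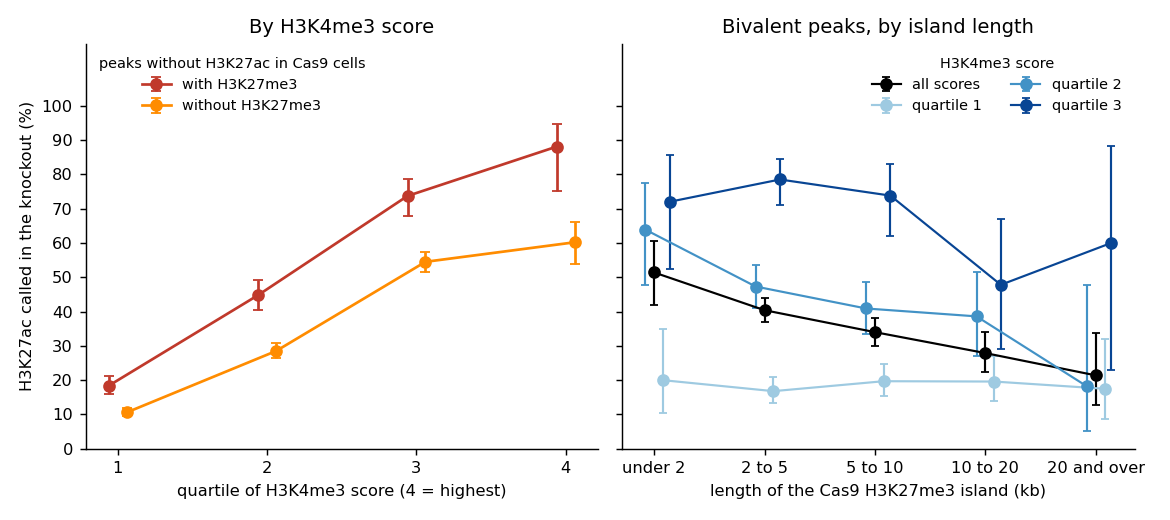
Share of H3K4me3 peaks without H3K27ac in Cas9 cells that were overlapped by knockout H3K27ac (%, vertical axis, bars are Wilson 95% intervals), by quartile of H3K4me3 score with and without H3K27me3 (left) and, for bivalent peaks, by length of the Cas9 H3K27me3 island over all scores and in score quartiles 1 to 3 (right). The bivalent share rose from 18.4% to 88.1% over the quartiles, and over island length it fell from 51.4% to 21.4% when scores were pooled.

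The islands around members were somewhat shorter than those around the other bivalent peaks. The island that a member shared most with was 4200 bp long at the median (quartiles 2800 to 6600, range 800 to 95400), against 5000 bp (3400 to 8400). With the trimmed knockout H3K27ac list the medians were 4200 and 4800 bp, and their 95% intervals overlap (3800 to 4600 and 4600 to 5200). Of the 107 bivalent peaks in islands under 2 kb, 51.4% (42.0 to 60.7) were acetylated. The share was 40.4% for islands of 2 to 5 kb, 34.0% for 5 to 10 kb, 27.9% for 10 to 20 kb and 21.4% (12.7 to 33.8) for the 56 peaks in islands of 20 kb and over. This fall was not present at every H3K4me3 rank. In the lowest score quartile the shares were 20.0%, 16.8%, 19.7%, 19.6% and 17.5% over the same length classes. In the second quartile they went from 63.9% (23 of 36) to 18.2% (2 of 11). In the third they were 72.0%, 78.5%, 73.8%, 47.8% and 60.0%, the last from 5 peaks. Low-scoring bivalent peaks also lay in longer islands: members of the lowest quartile had islands of 5800 bp at the median and those of the highest had 3000 bp. Within the lowest quartile the members' islands were the longer, 5800 against 5200 bp, and in the other 3 quartiles they were the shorter.

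Members lay well inside their islands. In all, 523 of 615 members and 990 of the 1055 other bivalent peaks were wholly covered. From the centre of the peak to the nearer end of the island the median distance was 1242 bp for members and 1581 bp for the others. As a share of island length, counted from the nearer end, the median position was 0.325 for members and 0.330 for the others, so the relative position was similar. H3K27me3 covered 90.5% of positions 0.5 kb from the centre of members, 53.3% at 2 kb and 13.7% at 10 kb. For the other bivalent peaks these were 93.3%, 61.0% and 15.3%.

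Counted by island, 571 islands held a member. Most Cas9 islands hold no H3K4me3 peak at all: 1525 of 14107 (10.8%) did, and 1431 held a bivalent peak without Cas9 H3K27ac, of which the 571 are 39.9%. A single member was found in 530 islands, 2 members in 39, and the 41 islands with 2 or more held 85 members together. In 47 islands members lay beside bivalent peaks that were not acetylated. There the best member had the higher score in 40 islands, the lower in 5 and the same in 2, and it was the wider peak in 42. So the difference in H3K4me3 rank was also present between peaks inside the same island.

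The island with the most members was chr9:98851801-98866400, 14600 bp long, with 4. These were narrow H3K4me3 peaks of 226, 314, 204 and 359 bp with scores of 10.0, 21.0, 11.0 and 11.0. In the knockout they had merged under 2 H3K4me3 peaks of 1147 and 1183 bp, each spanning 2 of the members, and no part of the island was still called as H3K27me3. The next was chr17:63228401-63232000 with 3 members. It holds the widest member of all, chr17:63229689-63231793, which was 2105 bp wide, and a knockout H3K4me3 peak of 2698 bp covered it and its neighbour. The longest island with a member was chr2:74516201-74611600, 95400 bp long. Its member at chr2:74536099-74536351 was 253 bp wide in Cas9 cells and 796 bp in the knockout, with 632 bp of new H3K27ac.

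H3K27me3 itself was gone from most members in the knockout. An island was called on 35 of them in the knockout, 5.69% (4.12 to 7.81), against 119 of the other bivalent peaks, 11.3% (9.51 to 13.3), and 1.56% of all H3K4me3 peaks. Since all members had an island in Cas9 cells and most other peaks had none, the 1.56% is no level to read the members against. Within the lowest score quartile the shares were 6.96% for members (11 of 158) and 12.7% for the others, in the second 4.85% and 8.21%, and in the third 6.22% and 7.25%, with intervals that overlap in all 3 quartiles. Of the 154 bivalent peaks that kept an island, 22.7% (16.8 to 30.0) were acetylated, against 38.3% (35.8 to 40.7) of those that did not. Over whole islands, 8.06% of the 571 islands with a member were met by a knockout island, with 4.55% of their length covered. For the 860 islands with other bivalent peaks alone these values were 14.4% and 7.10%, and for the 12582 islands with no H3K4me3 peak 12.0% and 7.25%. A peak that kept H3K27me3 and gained H3K27ac was chr7:144505628-144505807, which lies in an island of 19800 bp.

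H3K4me3 was kept at nearly every member. In the knockout, 605 of 615 members were overlapped by an H3K4me3 peak, 98.4% (97.0 to 99.1), against 80.8% (78.3 to 83.0) of the other bivalent peaks and 85.4% of all Cas9 H3K4me3 peaks. Newly acetylated peaks without H3K27me3 kept it in 92.9% and peaks acetylated in Cas9 cells in 97.1%. The difference between the 2 kinds of bivalent peak lay in the low scores. In the lowest quartile H3K4me3 was kept at 94.3% of members (89.5 to 97.0) and 72.2% of the others (68.8 to 75.4). In the second quartile the shares were 99.6% and 97.1%, and in the third and the highest both were 100%. The 10 members without H3K4me3 in the knockout had scores of 11.0 to 23.0, with a median of 14.0. The one with the highest score was chr2:38203442-38203911, 470 bp wide, with 179 bp of knockout H3K27ac. Read the other way, 41.5% (39.0 to 44.1) of bivalent peaks that kept H3K4me3 were acetylated and 4.69% (10 of 213) of those that lost it. The same split among peaks without H3K27me3 gave 34.3% and 6.17%. Knockout H3K27ac chose the members, and at members 94.7% of its length lay inside knockout H3K4me3. A high share of kept H3K4me3 at members can thus come from the rule, and how much of it does was not tested.

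H3K4me3 was called wider in the knockout at most members, and narrower at most H3K4me3 peaks as a whole. The comparison uses peaks with exactly 1 knockout partner, which were 567 of the 615 members. The ratio of knockout to Cas9 width was 1.09 at the median (quartiles 0.898 to 1.40, range 0.318 to 6.80). It was 1.13 (0.851 to 1.68) at the other bivalent peaks, 0.924 at newly acetylated peaks without H3K27me3, and 0.905 at peaks acetylated in Cas9 cells. The peak was wider in the knockout at 361 of 567 members, 63.7% (59.6 to 67.5), against 36.4% of all peaks with 1 partner. The share was 59.9% (56.4 to 63.2) for the other bivalent peaks, 37.5% for newly acetylated peaks without H3K27me3 and 28.8% for peaks acetylated in Cas9 cells. The median of all peaks, 0.924, is below 1, so the knockout list has the narrower peaks as a whole, and the members are read against that level.

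The ratio was highest at the narrowest peaks in every group, and the members were compared within width classes for that reason. Cas9 width sets the class and also divides the ratio, and no single knockout partner was under 180 bp wide. A fall of the ratio over the classes can therefore arise without growth of narrow peaks, and only groups within a class are compared. At members under 300 bp the median ratio was 1.98, at 300 to 599 bp 1.28, at 600 to 899 bp 1.00 and at 900 bp and over 1.00. The other bivalent peaks had 1.71, 1.06, 0.902 and 0.886 in the same classes. Newly acetylated peaks without H3K27me3 had 1.26, 0.934, 0.873 and 0.859, and peaks acetylated in Cas9 cells had 1.1, 0.927, 0.896 and 0.894. So members had the higher ratio in all 4 width classes although their pooled median was the lower of the 2 kinds of bivalent peak. More of the other bivalent peaks were narrow (437 of 1055 under 300 bp, against 73 of 615). The quartiles of the groups overlap in each class. Members were chosen by knockout H3K27ac, and 94.7% of the length of those H3K27ac peaks lay inside knockout H3K4me3. The rule can therefore favour peaks that are wide in the knockout, and the part of this in the ratios was not tested.

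**Figure D4:**
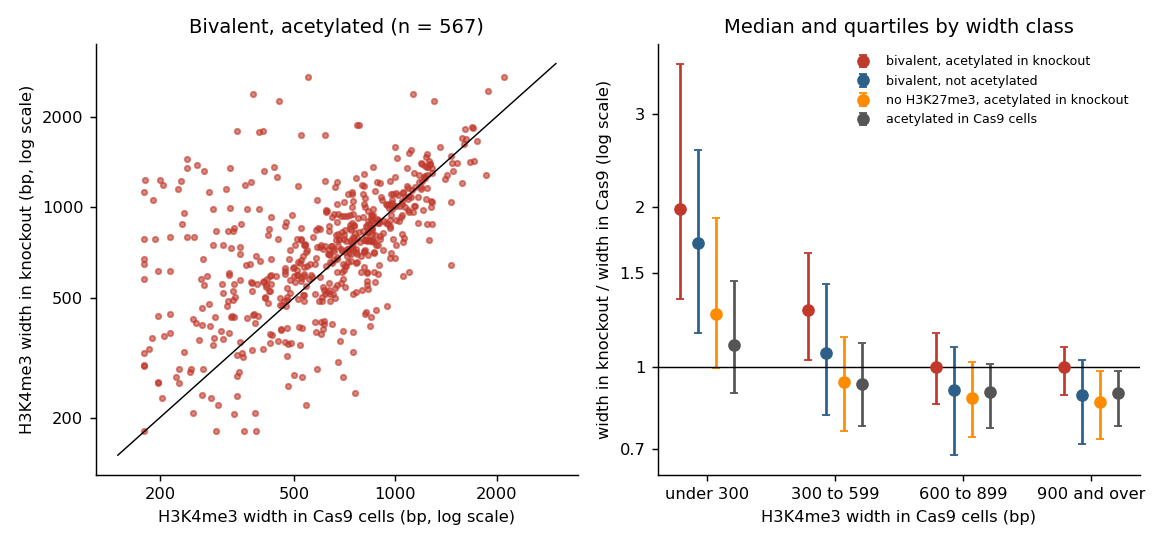
Left, H3K4me3 width in the knockout against width in Cas9 cells (bp, log scales) for the 567 acetylated bivalent peaks with exactly 1 knockout partner, with the line of equal width. Right, median and quartiles of the ratio of knockout to Cas9 width (log scale) by width class in 4 groups of peaks. The medians of members (red) went from 1.98 in the narrowest class to 1.00 in the widest and were the highest of the 4 groups in each class. Members were chosen by a knockout mark, and the part of this in the ratios was not tested.

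Some knockout peaks joined neighbouring Cas9 peaks. At 69 of the 567 members (12.2%) the knockout peak also met another Cas9 H3K4me3 peak, as it did at 12.1% of the other bivalent peaks, 7.40% of newly acetylated peaks without H3K27me3 and 5.39% of peaks acetylated in Cas9 cells. With those left out, members had median ratios of 1.52, 1.19, 0.999 and 0.983 over the 4 width classes and the other bivalent peaks 1.46, 1.01, 0.877 and 0.860. The order of the 2 groups was the same in each class. Among the largest ratios, chr5:28492892-28493072 went from 181 bp to 1231 bp, a ratio of 6.80. A second member 421 bp away, chr5:28492271-28492470, has the same knockout H3K4me3 peak and the same knockout H3K27ac peak of 1193 bp. At chr16:22161639-22162016 the width went from 378 to 2380 bp, and at chr7:144505628-144505807 from 180 to 1123 bp. The smallest ratio was 0.318, at chr11:59777907-59778665, where 759 bp became 241 bp and the H3K27ac peak of 192 bp stood at percentile 0.302 of its list.

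Among peaks with 1 knockout partner, members stood at the 41.1st score percentile of the Cas9 list at the median and all H3K4me3 peaks at the 56.7th. In the knockout list the partner's score percentile was 56.1 at the median (quartiles 41.5 to 72.2) for members and 59.0 for all peaks. The other bivalent peaks went from 23.3 to 34.8, newly acetylated peaks without H3K27me3 from 51.1 to 50.4 and peaks acetylated in Cas9 cells from 73.7 to 72.2. Within the lowest Cas9 score quartile the partners stood at 41.5 for members, 27.3 for the other bivalent peaks and 23.1 for newly acetylated peaks without H3K27me3. In the second quartile these were 53.1, 41.5 and 41.5, in the third 69.7, 61.7 and 61.7, and in the highest 86.0, 67.2 (from 4 peaks) and 79.8. Percentiles from lists of different make-up show rank and not the amount of the mark. Members were chosen by knockout H3K27ac, which lay mostly within knockout H3K4me3, so the rule can favour partners of high rank. The part of this in the members' percentiles was not tested.

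Members and the other bivalent peaks had Cas9 H3K27ac and H3K27me3 around them in similar shares, and both differed there from newly acetylated peaks without H3K27me3. A Cas9 H3K27ac peak lay within 50 kb of 35.1% of members (31.5 to 39.0) and 31.3% of the others (28.6 to 34.1), and within 50 kb of 55.4% (52.9 to 58.0) of newly acetylated peaks without H3K27me3. Over all Cas9 H3K4me3 peaks the share was 78.4%, which includes the peaks that overlap Cas9 H3K27ac themselves. The median distance to the nearest Cas9 H3K27ac peak was 81097 bp for members and 89958 bp for the other bivalent peaks. For the newly acetylated peaks without H3K27me3 it was 41694 bp. A Cas9 H3K27me3 island that did not overlap the peak lay within 50 kb of 59.7% (55.7 to 63.5) of members, 60.9% (58.0 to 63.8) of the other bivalent peaks and 38.3% (35.8 to 40.9) of the newly acetylated peaks without H3K27me3. An H3K27me3 island remained in the knockout within 50 kb of 19.0% (16.1 to 22.3) of members and 26.5% (24.0 to 29.3) of the other bivalent peaks. Another Cas9 H3K4me3 peak within 10 kb was less common at members, 30.4% (26.9 to 34.2) against 38.4% (35.5 to 41.4). With only the best-scoring peak of each island counted the values were 24.7% and 25.0%, so that difference is not present between islands. Over all Cas9 H3K4me3 peaks, 52.3% had another within 10 kb, so both kinds of bivalent peak had such a neighbour less often than the whole list.

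Members lay near other members more often than other bivalent peaks did, mostly as pairs in 1 H3K27me3 island. The same knockout H3K27ac peak can make adjacent H3K4me3 peaks members together, so the rule itself can produce such pairs. How many pairs arose this way was not counted. Another member was within 10 kb of 14.1% of members (11.6 to 17.1) and of 6.07% (4.78 to 7.67) of bivalent peaks that were not acetylated. Within 50 kb the shares were 17.9% (15.1 to 21.1) and 10.0% (8.38 to 12.0). A member in the same island was within 10 kb of 81 members, 13.2% (10.7 to 16.1), and of 57 of the others, 5.40% (4.19 to 6.94). A member in another island was within 10 kb of 8 members, 1.30% (0.661 to 2.55), and of 7 of the others, 0.664% (0.322 to 1.36). Within 50 kb a member in another island was present for 5.37% (3.85 to 7.44) of members and 4.93% (3.78 to 6.41) of the others. The intervals for members in another island overlap at both distances. H3K4me3 peaks nearby that had no H3K27me3 were acetylated at about the share of the whole list. Of 288 such peaks without Cas9 H3K27ac that lay within 50 kb of a member, 24.3% (19.7 to 29.6) were acetylated in the knockout. Within 50 kb of a bivalent peak that was not acetylated, and of no member, 23.6% (19.3 to 28.4) of 331 were, and over the whole list 25.9% were. New knockout H3K27ac away from every Cas9 H3K27ac and H3K4me3 peak lay within 10 kb of 23 members, 3.74% (2.50 to 5.55), and of 1.99% (1.31 to 3.02) of the other bivalent peaks. It did so for 2.08% (1.46 to 2.95) of newly acetylated peaks without H3K27me3 and 2.28% (1.95 to 2.65) of peaks acetylated in Cas9 cells. The interval of the members overlaps those of all these groups.

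By chromosome the share of bivalent peaks that were acetylated ran from 25.6% on chromosome 6 (21 of 82, 17.4 to 36.0) to 48.8% on chromosome 16 (21 of 43, 34.6 to 63.2) among the autosomes, and these intervals overlap. No member was on chromosome X. It held 12 bivalent peaks, which allows a share of up to 24.2% by the Wilson interval. Among peaks without H3K27me3 the share on chromosome X was 14.5% (10.5 to 19.5), against 26.4% (25.2 to 27.6) on the autosomes.

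Gfi1 is a zinc finger repressor of transcription, and its gene is named in the title of the series. The Gfi1 antibody lists come from neurospheres, not from the tumour cells, and they are broad: 63177 islands over 368 Mb in Cas9 neurospheres and 67079 islands over 294 Mb in Suz12F2 neurospheres. An island of the Cas9 neurospheres overlapped 576 members, 93.7% (91.4 to 95.3), against 96.4% (95.1 to 97.4) of the other bivalent peaks and 86.4% of all Cas9 H3K4me3 peaks. The shares were 87.9% for newly acetylated peaks without H3K27me3 and 87.0% for peaks acetylated in Cas9 cells. In Suz12F2 neurospheres an island overlapped 614 members and 1053 of the other bivalent peaks, each 99.8%, against 97.5% of all peaks. In the Cas9 neurosphere list both kinds of bivalent peak were thus overlapped more often than the groups without H3K27me3, with intervals apart. Of the 4136 peaks with neither H3K27me3 nor H3K27ac in either kind of cell, 81.2% (80.0 to 82.4) were in such an island. The intervals of members and of the other bivalent peaks overlap in both lists.

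Gfi1 islands were also longer at bivalent peaks. The Gfi1 island at a member was 7000 bp long at the median in Cas9 neurospheres and 5000 bp in Suz12F2 neurospheres. At the other bivalent peaks these were 7400 and 5600 bp, at newly acetylated peaks without H3K27me3 4400 and 3200 bp, at peaks with neither H3K27me3 nor H3K27ac in either kind of cell 5200 and 3600 bp, and at peaks acetylated in Cas9 cells 3400 and 2600 bp. The islands' score percentiles in the Cas9 neurosphere list had medians of 82.6 at members, 83.7 at the other bivalent peaks, 67.6 at newly acetylated peaks without H3K27me3, 73.4 at those not acetylated and 58.8 at peaks acetylated in Cas9 cells. At 2 kb from the centre, 62.7% of positions around members were inside a Gfi1 island of the Cas9 neurospheres, 65.6% around the other bivalent peaks and 36.8% around peaks acetylated in Cas9 cells. At 10 kb the values were 43.9%, 44.8% and 31.3%. Around newly acetylated peaks without H3K27me3 they were 45.2% at 2 kb and 38.3% at 10 kb. By quartile of H3K4me3 score the members' share in Gfi1 islands of Cas9 neurospheres went from 96.8% in the lowest through 93.4% and 92.2% to 89.2% in the highest. The other bivalent peaks had 96.9%, 96.8% and 91.3% in the first 3 quartiles. Of the named members, chr1:9787844-9788599, the one with the highest knockout H3K27ac score, was in a Gfi1 island of Suz12F2 neurospheres and not in one of Cas9 neurospheres.

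The Cas9 antibody lists give the level of regions called with an antibody against the nuclease. In U6 neurospheres 160 members were overlapped, 26% (22.7 to 29.6), against 21.5% (19.1 to 24.1) of the other bivalent peaks, 12.4% of newly acetylated peaks without H3K27me3, 14.8% of peaks acetylated in Cas9 cells and 13.2% of all peaks. In Suz12F2 neurospheres 61 members were overlapped, 9.92% (7.80 to 12.5), against 12.0% (10.2 to 14.1) of the other bivalent peaks and 6.39% of all peaks. In Suz12F1 neurospheres 1 member was overlapped, 0.163%, and none of the 1055 other bivalent peaks, against 0.0557% of all peaks. Members of 900 bp and over were in U6 regions in 40.1% (32.7 to 48.1) and those of 300 to 599 bp in 16.7% (11.9 to 22.8). The shares were 31.5% (22.0 to 42.9) under 300 bp and 21.9% (16.8 to 28.0) at 600 to 899 bp, so there was no steady rise with width. With peaks in any Cas9 antibody region left out, 91.6% (88.6 to 93.9) of members were in Gfi1 islands of Cas9 neurospheres. For the other bivalent peaks the share was 95.2% (93.5 to 96.5). Beyond this, the part of antibody-shared regions in the Gfi1 overlap was not tested.

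**Figure D5:**
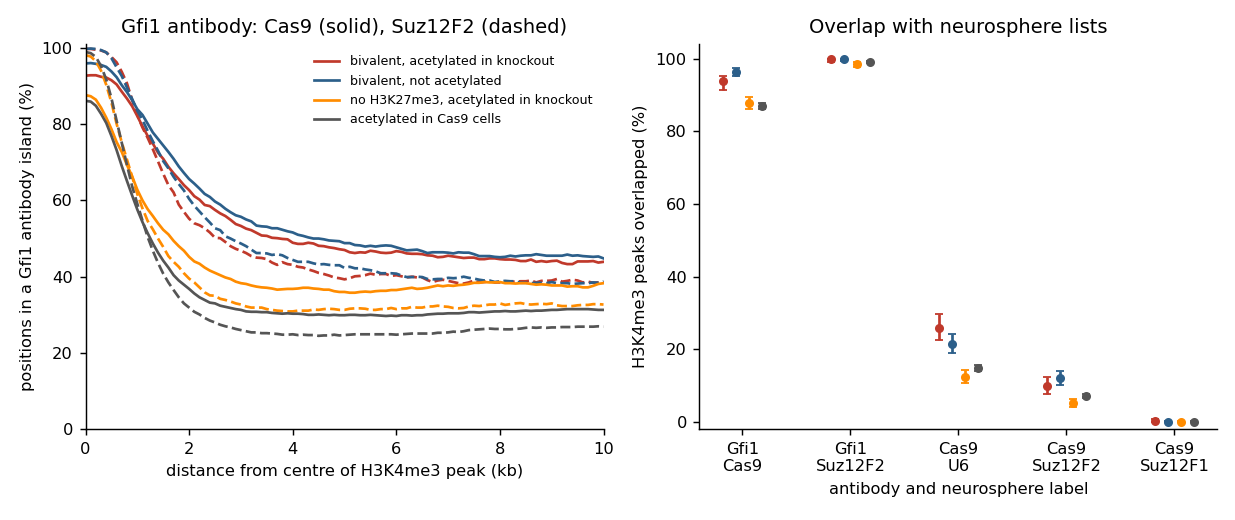
Left, share of positions (%, vertical axis) inside Gfi1 antibody islands of Cas9 (solid) and Suz12F2 (dashed) neurospheres by distance from the centre of the H3K4me3 peak in kb, for 4 groups of peaks. Right, share of peaks (%) overlapped by regions of each neurosphere list, with Wilson 95% intervals. Both kinds of bivalent peak (red and blue) stayed above the other groups away from the centre, with 62.7% and 65.6% at 2 kb in Cas9 neurospheres. Newly acetylated peaks without H3K27me3 (orange) had 45.2% there and peaks acetylated in Cas9 cells (grey) 36.8%.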

How the data were processed

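Histone marks were profiled by ChIP-seq, which sequences DNA bound by an antibody's target. Of 14 libraries, 6 tumour lists and 5 neurosphere lists were used, each called by the authors on 1 library, and the 3 input libraries were not used here. Groups follow titles, genotypes and antibodies in the labels. The submitters' processing notes name build mm9 and, with no role or order, SICER 1.1, R 2.14.0, SAMtools, Picard and BWA 0.5.9-r26. H3K27me3 and neurosphere lists hold islands, runs of enriched windows, called with a window of 200 bp, a gap of 600 bp and a false discovery rate of 0.00001 per the names of the deposited lists. The sources used here do not give the caller of the narrow H3K4me3 and H3K27ac peaks. A score of unstated meaning, deposited by the authors for every region, was used only to rank regions within a list, as percentiles and quartiles. Island ends were moved by 1 bp, since they give the last base in a count from 0. The tumour lists skip 71 to 486 region numbers each, which were not analysed here.

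Overlap meant at least 1 bp. Overlaps, widths and distances came from code in Python 3.11.15 (scipy 1.17.1, numpy 2.4.6), tested on simulated data, and the 615 members were also counted with bedtools 2.31.1, which gave 615. Figures used matplotlib 3.10.9. Medians carry quartiles. For the alternatives, 95% intervals of medians came from order statistics. No test or p-value was possible with 1 library per group.

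Named regions are the 10 members with the highest H3K4me3 score, the 5 widest, the 5 in the longest islands, the 5 islands with most members, the 5 largest and 5 smallest width ratios, the 5 highest knockout H3K27ac scores, and the highest-scoring members without knockout H3K4me3. Some of them are named in the text. The members, groups and comparisons were chosen with earlier results of these data known. Alternatives were the upper 50% of H3K4me3 scores, the knockout H3K27ac list trimmed by score to the length of the Cas9 list, 200 bp of shared H3K27ac, 50% of the peak covered by the island, no Cas9 H3K27ac within 1 kb, 1 peak per island, autosomes alone and removal of peaks in Cas9 antibody regions. Members that failed the trimmed list or the 200 bp were counted with the peaks that were not acetylated. Marks judged on the central 200 bp, and knockout partners that meet no other Cas9 H3K4me3 peak, were added after seeing the data.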

Additional observations from a re-analysis of the deposited data

How the results depend on the processing

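Each of 12 results was recomputed under 8 or more alternatives, 108 values in all. Of the members' values, 91 stayed inside the main 95% interval, 17 moved outside it and none that was called reversed. The share of bivalent peaks that were acetylated, 36.8%, was 74.3% in the upper 50% of H3K4me3 scores, 23.1% with the knockout H3K27ac list trimmed to the length of the Cas9 list, 30.1% with 200 bp of shared H3K27ac and 39.6% with 1 peak per island. In the upper 50% of scores members were 896 bp wide (others 752), stood at the 62.7th score percentile (others 56.7), lay in islands of 3500 bp (others 4600, intervals overlapping), kept H3K4me3 in 100% (others 100%), had a width ratio of 1.00 (others 0.928) and had another H3K4me3 peak within 10 kb in 23.4% (others 32.6%). With 200 bp shared, members were 727 bp wide, stood at 47.4, kept H3K4me3 in 99.2% and had an H3K4me3 neighbour in 26.9%. With the trimmed list they stood at 47.4. With 1 peak per island, 24.7% had such a neighbour (others 25%). Leaving out partners that meet another Cas9 peak gave a width ratio of 1.05 (others 1.04). The pooled ratio was below that of the other bivalent peaks in the main comparison (intervals overlapping) and with 200 bp shared (1.07 against 1.15, intervals apart), and above it under those 2 alternatives (intervals overlapping). The share in Gfi1 islands of Cas9 neurospheres was above that of the others in the upper 50% of scores, 91.9% against 90.7%, and below it under every other alternative. Its intervals lay apart with 200 bp shared (93.0% against 96.4%) and on autosomes alone (93.7% against 96.6%), and overlapped under the rest. Island length also had overlapping intervals with the trimmed list, 4200 against 4800 bp. The intervals of knockout H3K27me3 overlapped in the upper 50% of scores, with the trimmed list and without peaks in Cas9 antibody regions.

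The cause of these moves was not tested. No paired analysis was possible because every group holds 1 library to itself. Depth is unknown, so a missing peak is a peak not called at this depth, and the knockout H3K27ac list is the longer of the 2.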
